A study of Homo sapiens with 66 samples.

Results

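ZBP1 and 9 genes of necroptosis, death receptor signaling and apoptosis priming were followed through every library of 2 RNA-seq studies of THP-1, a human monocytic leukemia cell line. The members are ZBP1, RIPK1, RIPK3, MLKL, CASP8, CASP1, TNFSF10, FAS, PMAIP1 and BBC3. They were chosen by Ensembl identifier, and all 10 were found among the 57820 genes of both count tables. Reads had been counted on the exons of each gene, and levels are given here as CPM, the counts scaled to TMM-adjusted library sizes.

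Study 1 used a STING-deficient, Cas9-transgenic THP-1 clone and total RNA. Cells were nucleofected with 2 gRNAs per group. CTRL cells received the nontarget gRNA NC1, and the other groups received a gRNA against GFP, ADAR, HNRNPC or both ADAR and HNRNPC. RNA was taken on days 3, 4 and 5, and 1 further CTRL group was treated with IFN-α from day 3 and taken on day 4. This gave 48 libraries in 16 groups of 3. Study 2 used a wild-type Cas9-transgenic clone on day 4 with other gRNAs against ADAR and HNRNPC, so the studies differ in clone, gRNA and sequencing depth. Total and digitonin-soluble (cytosolic) RNA was sequenced from cells with CTRL, ADAR, hnRNPC or both targeting gRNAs, and insoluble (nuclear, with mitochondria) RNA from hnRNPC-targeted cells, in 18 libraries in 9 groups of 2. All groups carry Cas9, gene-targeted cells were taken as bulk populations, and each study rests on 1 clone. The study describes its RNA-seq replicates as independent, while the labels give a replicate number only, and the p-values measure the spread between these libraries.

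ZBP1 is an interferon-induced sensor of left-handed double-stranded nucleic acid. Like RIPK1 it can recruit the kinase RIPK3, which phosphorylates MLKL, and MLKL then breaks the plasma membrane in necroptosis. CASP8, the initiator caspase of the death receptors, cleaves RIPK1 and RIPK3 and turns the outcome toward apoptosis. TNFSF10 encodes the death ligand TRAIL and FAS the receptor of FAS ligand. PMAIP1 (NOXA) and BBC3 (PUMA) are BH3-only proteins that oppose the anti-apoptotic BCL2 proteins at mitochondria, and CASP1 is the inflammasome caspase that matures IL-1β.

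Because ADAR is the RNA editing enzyme that keeps self double-stranded RNA from inducing interferon, the sequence at the start sites of these genes is shown first. RefSeq promoter windows (GRCh38.p14, 250 bases before to 50 bases after a start site) were given for 7 of the 10 genes. ZBP1, RIPK3 and CASP1 had none. The core of the interferon-stimulated response element, TTTCNNTTTC or GAAANNGAAA on the other strand, occurred in the windows of 4 genes, TNFSF10, CASP8, RIPK1 and BBC3. Of all 27305 genes with a window, 4.38% held it, as did 3.57% of the 35116 windows. The 60 bases around each match are given 5′ to 3′ on the strand of the gene, with the match in capitals. They lie at chr3:172523583-172523642 (minus strand) for TNFSF10, chr2:201233435-201233494 (plus) for CASP8, chr6:3068286-3068345 (plus) for RIPK1 and chr19:47232618-47232677 (minus) for BBC3, where a pair of matches overlaps.
TNFSF10: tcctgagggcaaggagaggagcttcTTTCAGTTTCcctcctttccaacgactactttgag
CASP8: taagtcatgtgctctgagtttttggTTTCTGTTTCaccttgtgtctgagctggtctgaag
RIPK1: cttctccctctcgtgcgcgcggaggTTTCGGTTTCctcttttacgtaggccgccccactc
BBC3: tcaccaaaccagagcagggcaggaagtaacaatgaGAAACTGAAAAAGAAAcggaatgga
The matches begin 187 bases before the start site in TNFSF10, 67 before in RIPK1 and 3 before in CASP8, and 26 bases after it in BBC3. The RIPK1 match also lies in a second window, 183 bases before the start site of that window. With 1 base between its repeats (TTTCNTTTC or GAAANGAAA), TNFSF10 alone had a match, as did 3.87% of all genes and 3.12% of all windows. The gamma-activated sequence TTCNNNGAA, which reads the same on both strands, was in a CASP8 window. It was in 9.38% of all genes and 7.66% of all windows. A match is a stretch of letters and not a shown binding site.

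Gene counts per library ranged from 95107690 to 152829008 in study 1 and from 49666958 to 73873756 in study 2. On day 5, HNRNPC RNA fell by 1.39 on the log2 scale with hnRNPC gRNA and by 1.08 with both gRNAs. ADAR RNA of study 1 was between 364 and 412 CPM in CTRL and between 373 and 396 CPM in ADAR-targeted cells on day 5, so the RNA level does not show the targeting, and double targeting brought it to 1322 CPM ± 174 (SD, n = 3). In study 2 it fell by 0.77 with ADAR gRNA. Of the myeloid markers, CD33, SPI1 and LYZ were at 22.4 CPM or more in every library, whereas CD14 reached at most 3.93 and CD68 at most 0.292 CPM. T cell, erythroid and epithelial markers reached at most 0.832 CPM. In such bulk RNA, a change per cell and a change in the share of cells that express a gene cannot be told apart.

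ZBP1 (chr20:56178902-56195632, minus strand, GRCh37) was at or next to 0 in all CTRL and GFP libraries. The 3 CTRL libraries of day 3 had 0 counts. Day 4 gave 2, 0 and 0, while day 5 gave 0, 0 and 1. All 9 GFP libraries had 0. In hnRNPC-targeted cells a count was found in 1 of 9 libraries (2 counts, day 4). ADAR-targeted cells had 15, 3 and 3 counts on day 5. ADAR+hnRNPC-targeted cells had 0 counts in all 3 libraries on day 3. They had 9, 21 and 22 counts on day 4. By day 5 the counts were 1164, 1480 and 3576, equal to a mean of 16.4 CPM. IFN-α-treated cells had 14, 10 and 8 counts. The groups of ADAR+hnRNPC day 4, ADAR day 5 and IFN-α did not overlap the CTRL groups, and the ADAR+hnRNPC group of day 5 stood apart from every other group.

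Pooled over the libraries of a group, ZBP1 on day 5 was 6967 times higher in ADAR+hnRNPC-targeted than in CTRL cells, with a 95% exact interval from 1250 to 275224 that rests on the single CTRL count. It was at least 2450-fold higher than in hnRNPC-targeted and at least 1777-fold higher than in GFP-targeted cells, both at 0 counts and set to a floor of 3 counts over the group. It was 256 times the level with ADAR gRNA alone (167 to 413) and 119 times that of the same cells on day 4 (90.6 to 159.5). IFN-α-treated cells had 19.7 times (5.02 to 169) the ZBP1 of CTRL on day 4, and the double-targeted cells of day 5 were 173 times (122 to 253) above the IFN-α-treated cells. These intervals cover counting error only. Of the 21 counts with ADAR gRNA, 15 came from replicate 1, and without it the ratio was 586. Without ADAR+hnRNPC day 5 replicate 3, the highest library, the ratios were 4591 to CTRL, 168 to ADAR gRNA, 114 to IFN-α and 78.4 to day 4, and the bounds were 1614 and 1171. Without any 1 library of the hnRNPC or GFP group of day 5 the bounds fell to no less than 1594 and 1157. With CTRL day 5 replicate 3 left out, CTRL had 0 counts and ZBP1 was at least 1502-fold higher. The IFN-α ratio became 12.5 and 12.4 without CTRL day 4 replicate 2 or 3, and without replicate 1 it was at least 9.60. ZBP1 did not reach the average of 0.5 log2 CPM required for the tests across all 48 or all 18 libraries.

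The other 9 genes passed that filter in both studies. Per kilobase of exon, CASP1 and PMAIP1 were the most abundant in CTRL cells of day 5, with means of 11.9 and 14.2 CPM per kb, and the order continued with CASP8 (7.31), RIPK3 (5.12), TNFSF10 (4.64), MLKL (4.02), BBC3 (1.87), RIPK1 (1.24) and FAS (1.13). PMAIP1 ranged from 10.7 to 20.1 CPM per kb over its 3 libraries and overlapped CASP1 (11.6 to 12.1). RIPK3 (4.79 to 5.30) overlapped TNFSF10 (4.24 to 4.93), TNFSF10 reached down to MLKL (3.77 to 4.25), and RIPK1 (1.11 to 1.40) overlapped FAS, so these neighbors do not separate beyond their spread. Exon lengths came from a later GENCODE release than the v19 on which reads were counted. Exons added since then lower a value per kilobase, so the order across genes is approximate.

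**Figure D1:**
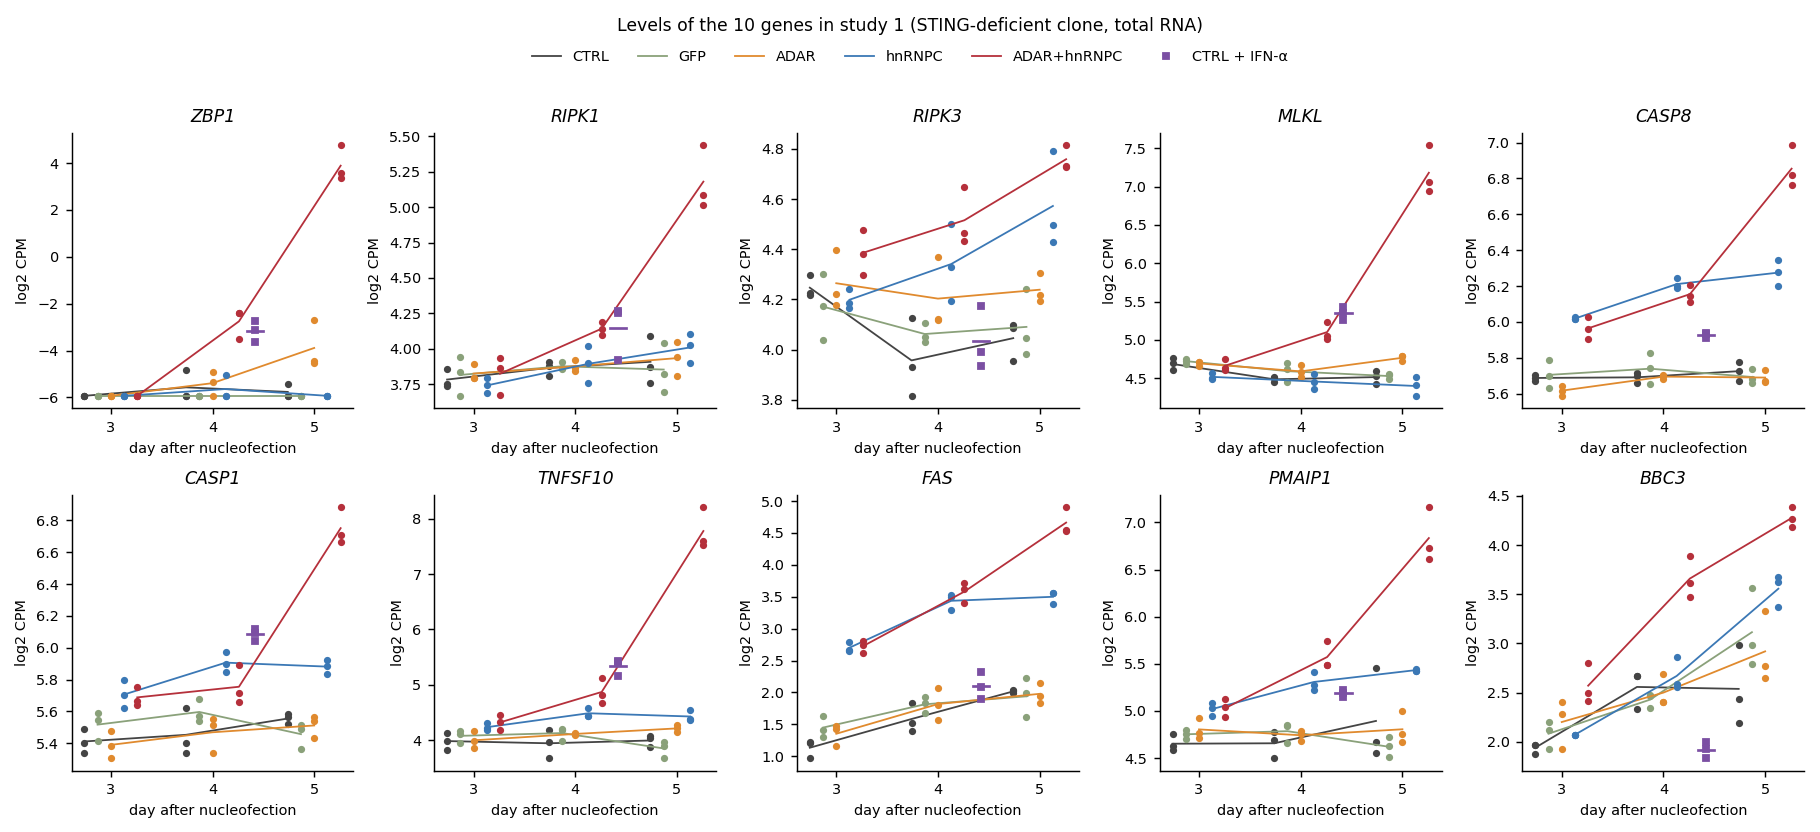
Log2 CPM of the 10 genes in study 1 by day after nucleofection, with 1 point per library and lines through the group means, and squares with a tick for the mean of the IFN-α-treated cells of day 4. Each panel has its own vertical axis. In all 10 panels the ADAR+hnRNPC group of day 5 has the highest mean, and in FAS the hnRNPC and ADAR+hnRNPC lines run close together until day 4.

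A gene was called changed at an absolute log2 fold change of 1 or more and an adjusted p of 0.05 or less, in the quasi-likelihood test of edgeR, the p-values being adjusted by Benjamini-Hochberg over all genes tested. GFP gRNA, a targeting control, changed none of the 9 genes on any day, with 0.19% of all genes called higher on day 5. BBC3 was the member with the largest difference there, 0.58 ± 0.17 (SE, adjusted p = 0.036), and its day 5 levels were 7.90, 6.92 and 11.8 CPM with GFP gRNA against 5.38, 4.56 and 7.90 CPM in CTRL. ADAR gRNA alone changed none of the 9 genes in study 1. On day 5, 0.273% of all genes were called higher, and the log2 fold changes of the members lay between -0.14 (PMAIP1) and 0.37 (BBC3), with MLKL at 0.25 (95% interval 0.08 to 0.43, adjusted p = 0.068). On days 3 and 4 ADAR gRNA gave 0 and 9 called genes in all (535 and 1705 at an unadjusted p under 0.05), none a member. DESeq2 called 0 genes on the first of these days, and on the other it called 13 higher and 1 lower.

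The IFN-α comparison shows which of these genes respond to interferon itself in the STING-deficient clone. TNFSF10 was called higher, and no other of the 9 was, against 1.21% of all genes. Its levels were 12.9, 15.6 and 18.1 CPM in CTRL and 35.8, 42.9 and 42.5 CPM with IFN-α, a log2 fold change of 1.38 ± 0.13 (SE). MLKL rose by less than the threshold, from 21.8 to 22.8 CPM in CTRL to 38.2 to 43.2 CPM (0.86 ± 0.09, adjusted p = 1.2e-09). CASP1 followed with 0.63, PMAIP1 with 0.53, FAS with 0.52, RIPK1 with 0.29 and CASP8 with 0.23, all at an adjusted p of 0.036 or less. RIPK3 differed by 0.07 (95% interval -0.11 to 0.26). BBC3 was the only one of the 9 with a lower level, at 3.55 to 3.97 CPM against 5.03 to 6.36 CPM (-0.65 ± 0.18, adjusted p = 0.0086). The 4 genes with the response element core thus had IFN-α log2 fold changes of 1.38 (TNFSF10), 0.29 (RIPK1), 0.23 (CASP8) and -0.65 (BBC3). The median of the 9 genes was 0.52, and that of all genes tested was 0.02.

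With hnRNPC gRNA alone, FAS was called higher on all 3 days and was the single member called on each, against 0.554%, 1.58% and 3.96% of all genes on days 3, 4 and 5. FAS levels in CTRL cells were 2.29, 2.32 and 1.95 CPM on day 3 and 4.09, 3.94 and 4.06 CPM on day 5. In hnRNPC-targeted cells they were 6.33, 6.88 and 6.27 CPM on day 3 and 10.4, 11.8 and 11.7 CPM on day 5, above every CTRL library of the same day. The log2 fold changes were 1.57 ± 0.14, 1.85 ± 0.14 and 1.49 ± 0.14 (SE) on the 3 days. CTRL cells themselves had 0.88 ± 0.14 more FAS on day 5 than on day 3, below the threshold. The FAS locus overlaps ACTA2 and a long noncoding RNA on the other strand, and whether strand was used in counting is not given in the sources used here, so its reads are in part uncertain.

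CASP8 followed FAS at a smaller size, with 50.6 to 54.9 CPM in CTRL cells of the 3 days and 64.6 to 81.3 CPM in hnRNPC-targeted cells. Its log2 fold changes of 0.33, 0.52 and 0.55 (SE 0.05 each, adjusted p = 1.2e-06, 2.9e-11 and 2.6e-12) exceeded the spread between libraries and missed the size threshold. CASP8 reads are in part uncertain too, since a long noncoding RNA lies inside the gene on the same strand, and RIPK1 overlaps one on the other strand. CASP1 (0.30, 0.45 and 0.33) and PMAIP1 (0.37, 0.65 and 0.48) were of similar size at an adjusted p of 0.029 or less. MLKL did not rise, at 19.3 to 23.8 CPM in hnRNPC-targeted and 21.4 to 27.2 CPM in CTRL cells (-0.17, -0.03 and -0.11), and RIPK1 differed by no more than 0.10. RIPK3 and TNFSF10 were not called on any of the 3 days. BBC3 rose late, with 4.19 CPM in each of the 3 libraries of day 3 and 12.7, 10.3 and 12.3 CPM on day 5 (0.99 ± 0.17, adjusted p = 6.2e-06). That value lies next to the threshold of 1, and the highest GFP library of day 5 (11.8 CPM) was within the range of the hnRNPC-targeted libraries. BBC3 was called with DESeq2 (1.02) and limma-voom (1.01), without hnRNPC day 5 replicate 2 (1.08) and without CTRL day 5 replicate 3 (1.25), the highest CTRL library.

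Double targeting added further members day by day. On day 3 FAS was the single gene called (1.59 ± 0.14, 0.864% of all genes), at 6.66, 6.14 and 6.98 CPM and thus at the level of hnRNPC gRNA alone. On day 4 FAS (1.99 ± 0.14) and BBC3 (1.11 ± 0.17) were called, against 3.4% of all genes. BBC3 had 12.3, 11.1 and 14.8 CPM, above all CTRL libraries of that day, and its call was lost at 0.99 without ADAR+hnRNPC day 4 replicate 3. TNFSF10 and PMAIP1 were both at 0.92, with TNFSF10 called (1.05 and 1.02) without CTRL day 4 replicate 3 or ADAR+hnRNPC day 4 replicate 1, and MLKL was at 0.62 ± 0.09.

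On day 5, 8 of the 9 genes tested were called higher, against 9.38% of all genes, and RIPK3 was the one that was not. TNFSF10 had 14.6, 16.4 and 16.9 CPM in CTRL and 184, 194 and 295 CPM in ADAR+hnRNPC-targeted cells, a log2 fold change of 3.81 ± 0.14 (SE). MLKL, the executioner of necroptosis, went from 23.0, 21.4 and 24.2 CPM to 123, 134 and 186 CPM (2.69 ± 0.09). FAS went to 23.2, 23.4 and 29.8 CPM (2.66 ± 0.14). In all 3 genes the lowest double-targeted library was more than 5 times the highest CTRL library.

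The BH3-only genes and the caspases changed less. PMAIP1 had 25.5, 23.4 and 43.9 CPM in CTRL and 106, 98.0 and 143 CPM in ADAR+hnRNPC-targeted cells (1.90 ± 0.14), with CTRL replicate 3 standing above the others. BBC3 had 18.1, 19.2 and 20.8 CPM (1.70 ± 0.18). RIPK1 rose from 13.6, 14.6 and 17.04 CPM to 32.4, 33.9 and 43.3 CPM (1.28 ± 0.10), CASP1 from 47.3, 47.9 and 45.9 to 101, 105 and 118 CPM (1.20 ± 0.07), and CASP8 from 54.9, 52.9 and 51.0 to 113, 109 and 127 CPM (1.13 ± 0.05). RIPK3, the kinase that ZBP1 and RIPK1 recruit, had 16.96, 15.5 and 17.1 CPM in CTRL and 28.1, 26.6 and 26.5 CPM in ADAR+hnRNPC-targeted cells (0.71 ± 0.09, adjusted p = 1.1e-08), a difference beyond the spread but under the size threshold. The RIPK3 locus overlaps a long noncoding RNA on its own strand. ADAR+hnRNPC day 5 replicate 3 had the highest level of ZBP1 and of all 8 called genes, and each of the 8 calls held when any 1 library of the comparison was left out. The median log2 fold change was 1.70 over the 9 genes and -0.04 over all genes tested.

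**Figure D2:**
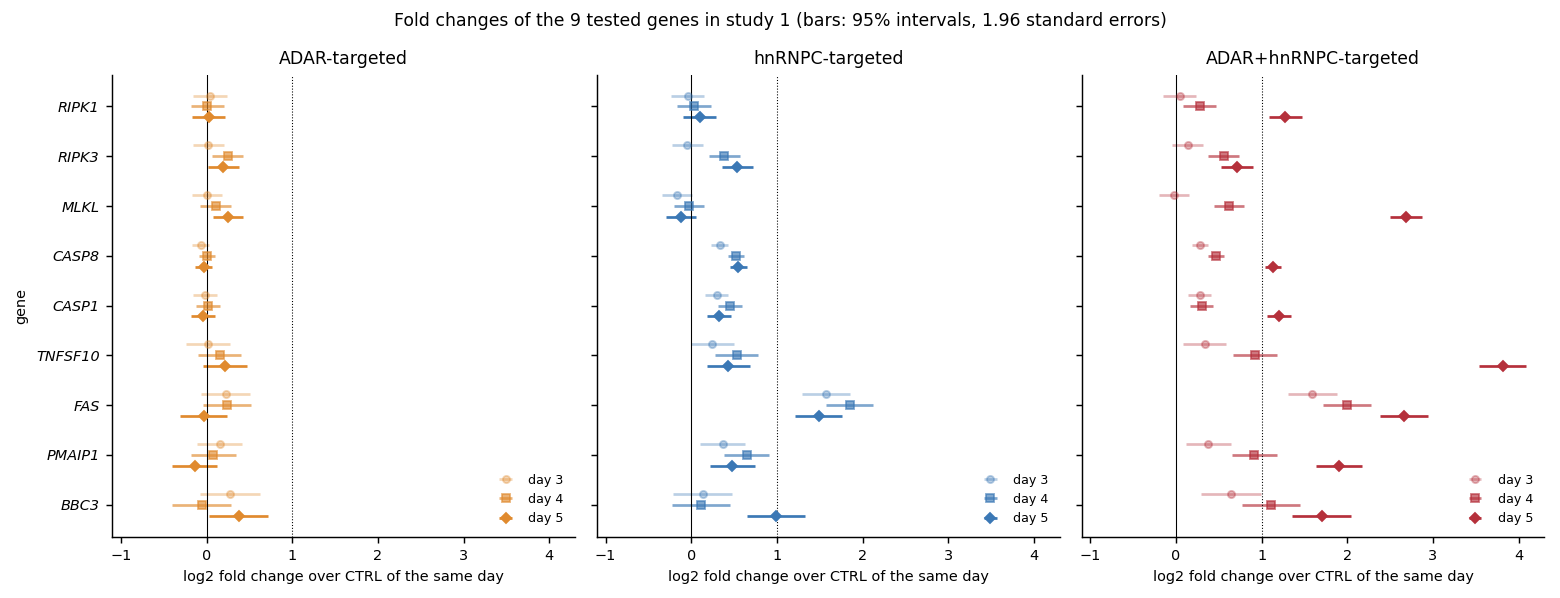
Log2 fold changes over CTRL of the same day for the 9 tested genes of study 1 with ADAR, hnRNPC or both gRNAs, with 1 marker per day and bars for the 95% interval. The dotted line marks a log2 fold change of 1. With ADAR gRNA all points lie below the line, with hnRNPC gRNA FAS lies beyond it on each day, and with both gRNAs all genes but RIPK3 lie beyond it on day 5.

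The change of the double-targeting response between day 3 and day 5 was tested directly. It was larger on day 5 for 6 of the 9 genes, against 7.19% of all genes, namely TNFSF10 (3.48 ± 0.19), MLKL (2.71 ± 0.13), PMAIP1 (1.52 ± 0.19), RIPK1 (1.23 ± 0.14), FAS (1.07 ± 0.20) and BBC3 (1.06 ± 0.25). FAS dropped to 0.94 without ADAR+hnRNPC day 5 replicate 3, and BBC3 to 0.98, 0.90 and 0.98 without CTRL day 5 replicate 1, CTRL day 5 replicate 2 or ADAR+hnRNPC day 3 replicate 1, so those calls depend on single libraries. CTRL cells changed no member between the same days. Against the IFN-α response, the double-targeting response of day 5 was larger for 5 genes, against 8.92% of all genes. These were TNFSF10 (2.44 ± 0.18), BBC3 (2.35 ± 0.25), FAS (2.14 ± 0.20), MLKL (1.82 ± 0.13) and PMAIP1 (1.38 ± 0.19). RIPK1 was at 0.99 ± 0.14 and was called with DESeq2 (1.06) and without any of 6 single libraries (1.01 to 1.08), CASP8 was at 0.90, and CASP1, at 0.57, had the smallest difference. Time after nucleofection and the length of interferon exposure differ between these 2 groups.

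**Figure D3:**
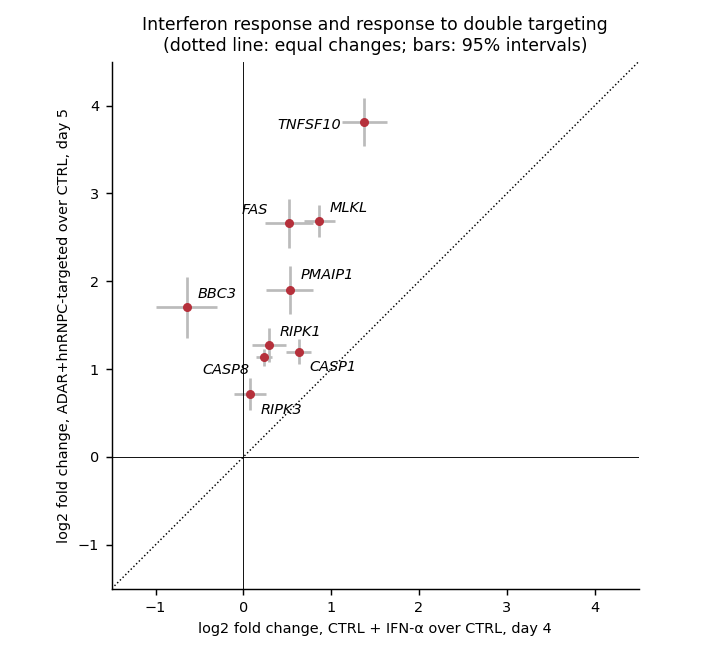
Log2 fold change with IFN-α on day 4 (horizontal) against that of ADAR+hnRNPC-targeted cells on day 5 (vertical), each over CTRL of its own day, for the 9 tested genes of study 1 with bars for the 95% interval. All 9 genes lie above the dotted line of equal changes, CASP1 and RIPK3 are nearest to it, and BBC3 is the one gene left of 0 on the horizontal axis.

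Whether both gRNAs together did more than the sum of each alone was tested as an interaction on the log2 scale within each day, called at an adjusted p of 0.05 or less. No member had one on day 3, when no gene had (1325 at an unadjusted p under 0.05 by edgeR, 0 called by limma-voom, and 33 positive and 11 negative calls by DESeq2). On day 4 MLKL (0.55 ± 0.10, adjusted p = 0.012) and BBC3 (1.06 ± 0.20, adjusted p = 0.011) had one, against 3.11% of all genes with a positive interaction. That share rests on 410 positive and 122 negative calls, which became 1446 and 1739 with a replicate block and 618 and 846 in a fit of all 48 libraries, both with the same number of members called. On day 5, 7 of the 9 genes had one, against 23.2% of all genes. The largest were TNFSF10 (3.14 ± 0.19) and MLKL (2.53 ± 0.17), followed by PMAIP1 (1.54 ± 0.26), FAS (1.18 ± 0.15), RIPK1 (1.14 ± 0.16), CASP1 (0.90 ± 0.09) and CASP8 (0.60 ± 0.09). RIPK3, at -0.03 ± 0.12 (95% interval -0.27 to 0.20), and BBC3, at 0.32 ± 0.26 (-0.19 to 0.83), were the 2 of these 9 with no call. The RIPK3 change with both gRNAs was thus not told apart from the sum of the changes with each alone. The BBC3 interaction passed on day 5 at 0.63 without ADAR day 5 replicate 3, whose level of 10.1 CPM was above the 6.81 and 6.27 CPM of the others. ZBP1 passed the filter among these 12 libraries through its level in the double-targeted group alone, so no interaction is given for it.

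Over the 16 group means of study 1, the members fell into no single pattern. As a description, with group means from the same 48 libraries, Pearson's r of mean log2 CPM was 0.97 between TNFSF10 and RIPK1, 0.96 between TNFSF10 and MLKL, and 0.96 between CASP8 and FAS, but 0.58 between FAS and MLKL, 0.57 between RIPK3 and MLKL, and 0.55 between BBC3 and MLKL. The ADAR+hnRNPC group of day 5, the highest in all genes, enters each value. The genes with the most similar profiles, among those whose group means had an SD of at least 0.3, were SP140L (0.99), GBP5 (0.99) and TRIM21 (0.99) for TNFSF10, INTS12 (0.99), TRIM26 (0.98) and TRIM38 (0.98) for MLKL, and IL1RN (0.99), CD274 (0.99) and SP140L (0.99) for RIPK1. For FAS they were PRPF3 (0.99) and INTS6 (0.99), for CASP8 CDKL1 (0.99), SYNJ1 (0.98) and ACSL1 (0.98), and for CASP1 APOBEC3G (0.98), PCGF5 (0.98) and PHACTR4 (0.98). For PMAIP1 they were GBP3 (0.98), IRF2-DT (0.98) and ZNF267 (0.98), for BBC3 DUSP4 (0.98), TSC22D3 (0.97) and DDIT4 (0.97), and for RIPK3 the gene ENSG00000262370 (0.98), CIDECP1 (0.97) and HIPK2 (0.97).

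The partners of these genes were read from lists of pathway genes, in ADAR+hnRNPC-targeted cells of day 5. Of 9 tested death receptors and ligands other than the members, 4 rose and none fell, against 9.38% of all genes called higher and 6.23% called lower, with a median log2 fold change of 0.95 where that of all genes was -0.04. The largest were the decoy TRAIL receptors TNFRSF10C (1.86 ± 0.19) and TNFRSF10D (1.21 ± 0.09) and the signaling TRAIL receptor TNFRSF10B (1.44 ± 0.12, from 22.8 ± 2.18 to 62.0 ± 12.5 CPM, SD, n = 3). TNF, LTA, FASLG and TLR3 did not pass the filter and were not tested. Each had a higher mean with both gRNAs than in CTRL, TLR3 with 8.32 ± 2.95 against 0.244 ± 0.0949 CPM. The others stayed low, TNF at 1.52 against 0.163, LTA at 0.307 against 0 and FASLG at 0.0433 against 0 CPM. With hnRNPC gRNA alone, TNF had a mean of 0.879 CPM. Of 17 adaptors, ubiquitin enzymes and inhibitors of the RIPK1 complexes, 7 rose and none fell (median 0.59), against the same 9.38% and 6.23%. The largest were the ubiquitin ligase BIRC3 (4.36 ± 0.17, from 2.09 ± 0.296 to 43.0 ± 5.68 CPM), the ubiquitin-editing enzyme TNFAIP3 (3.43 ± 0.16, from 13.4 ± 2.79 to 145 ± 15.7 CPM) and RBCK1 of the linear ubiquitin complex (1.98 ± 0.10). BIRC3 and TNFAIP3 are known to hold back RIPK1-dependent death. With IFN-α, 0 genes of either list were called, and their medians were 0.10 and 0.14.

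Of 12 tested BCL2 family genes, BMF rose (1.21 ± 0.14) and BCL2 fell by 1.55 ± 0.08, from 279 ± 15.0 to 95.4 ± 5.35 CPM. Among all genes, 9.38% were called higher and 6.23% lower. BMF and BCL2 were also called with hnRNPC gRNA alone on day 5 (BMF 1.18 and BCL2 -1.08), against 3.96% of all genes higher and 3.75% lower. BCL2A1 and HRK did not pass the filter and were not tested. BCL2A1 had 0.118 ± 0.0719 CPM in CTRL and 4.68 ± 0.742 CPM with both gRNAs on day 5, and HRK 0.00236 and 0.0438 CPM. Of the apoptosome genes, the initiator CASP9 fell by 1.23 in hnRNPC-targeted cells of day 5. Of 13 tested inflammasome and pyroptosis genes, 5 rose (9.38% of all genes), led by the sensors NLRP1 (4.25 ± 0.35) and NLRC4 (2.44 ± 0.21) and the cytokine IL1B (4.12 ± 0.32). NLRP1 (3.07), IL1B (1.43) and NLRC4 (1.39) were the 3 called with hnRNPC gRNA alone (3.96% of all genes). AIM2 and CASP5 did not pass the filter and were not tested. AIM2 had 0.00907 ± 0.0157 CPM in CTRL and 13.8 ± 6.67 CPM with both gRNAs on day 5, and CASP5 0.0590 and 2.96 CPM.

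PMAIP1, BBC3 and FAS are known p53 targets, and PMAIP1 and BBC3 are also induced by the integrated stress response. Of 15 other p53 targets, 5 rose with hnRNPC gRNA alone on day 5 and 6 with both gRNAs, against 3.96% and 9.38% of all genes, and none fell. The cell cycle inhibitor CDKN1A had 33.4 ± 5.02 CPM in CTRL cells, 211 ± 20.9 with hnRNPC gRNA and 202 ± 10.6 with both gRNAs (2.66 ± 0.21 and 2.60 ± 0.21). PHLDA3, a target that restrains AKT, was at 2.26 and 2.30. With IFN-α 1 p53 target rose and 2 fell, against 1.21% and 0.114% of all genes, CDKN1A at 1.04, ZMAT3 at -1.11 and PHLDA3 at -1.03. Of 7 genes of the integrated stress response, 6 rose with both gRNAs on day 5 (median 2.05), against 9.38% of all genes, with ATF3 at 5.35 ± 0.28, TRIB3 at 3.20 ± 0.21 and PPP1R15A at 2.72 ± 0.20, and none was called with IFN-α. Of the interferon reference genes, IFIT1, MX1 and ISG15 rose by 10.2, 8.55 and 6.81 on the log2 scale with both gRNAs, and by 8.58, 8.11 and 5.18 with IFN-α.

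In the wild-type clone of study 2, on day 4, the response was carried by TNFSF10, FAS and MLKL. In total RNA, ADAR gRNA called none of the 9 genes against 2.04% of all genes, although TNFSF10 was at 12.2 and 18.6 CPM in CTRL and at 27.4 and 33.6 CPM in ADAR-targeted cells (0.99 ± 0.26, adjusted p = 0.021) and MLKL at 22.3 and 27.3 against 42.4 and 48.9 CPM (0.88 ± 0.16, adjusted p = 0.0023). The groups of both genes did not overlap. Without CTRL total replicate 1 both were called (1.33 and 1.04), and TNFSF10 also without ADAR total replicate 2 (1.13). hnRNPC gRNA called none against 0.279%, with FAS at 4.32 and 5.40 CPM against 2.29 and 2.93 CPM (0.89 ± 0.20, adjusted p = 0.022), called at 1.08 without CTRL total replicate 1. Both gRNAs called 3 of the 9 genes against 3.35% of all genes.

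These were TNFSF10, at 32.9 and 53.5 CPM (1.49 ± 0.26), FAS, at 4.93 and 6.80 CPM (1.17 ± 0.20), and MLKL, at 44.1 and 62.6 CPM (1.11 ± 0.16). Without ADAR+hnRNPC total replicate 1, the higher library in each, FAS (0.92) and MLKL (0.83) were no longer called, which left 1 call. PMAIP1 was higher throughout study 2, with 73.4 and 103 CPM in CTRL total RNA, and differed by 0.12 ± 0.23 with both gRNAs, and BBC3 by 0.25 ± 0.25. No interaction was called for a member in total RNA (of all genes, 5421 had an unadjusted p under 0.05, 973 a positive and 2169 a negative call), and that of TNFSF10 was 0.08 (95% interval -0.64 to 0.79). RIPK1 was called by DESeq2 (0.38, adjusted p = 0.049), and RIPK3 by limma-voom (-0.50, adjusted p = 0.049) and without CTRL total replicate 1 (-0.59) or ADAR+hnRNPC total replicate 1 (-0.63), and CASP1 without CTRL total replicate 1 (-0.65). The median of all genes lay at -0.23 in this interaction with TMM and 0.20 higher with DESeq2.

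ZBP1 in study 2 had 4 and 0 counts in CTRL, 11 and 18 in ADAR-targeted, 3 and 8 in hnRNPC-targeted and 34 and 6 in ADAR+hnRNPC-targeted cells (total RNA). Pooled, it was 6.80 times (95% exact interval 2.39 to 26.6) the CTRL level with ADAR gRNA and 10.2 times (3.70 to 39.4) with both, and all 4 CTRL counts came from replicate 1. Leaving out single libraries gave 3.57 to 9.31 and 3.06 to 17.5 times, and, without CTRL total replicate 1, at least 4.31-fold and at least 6.48-fold higher levels. In cytosolic RNA CTRL had 1 and 0 counts, ADAR-targeted cells 19 and 6, and ADAR+hnRNPC-targeted cells 40 and 19, which is 54.7 times (9.45 to 2198) CTRL, and 28.7 to 78.3 times, or at least 8.66-fold where CTRL had 0 counts, with single libraries left out. Mean levels with both gRNAs were 0.338 CPM in total and 0.477 CPM in cytosolic RNA.

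**Figure D4:**
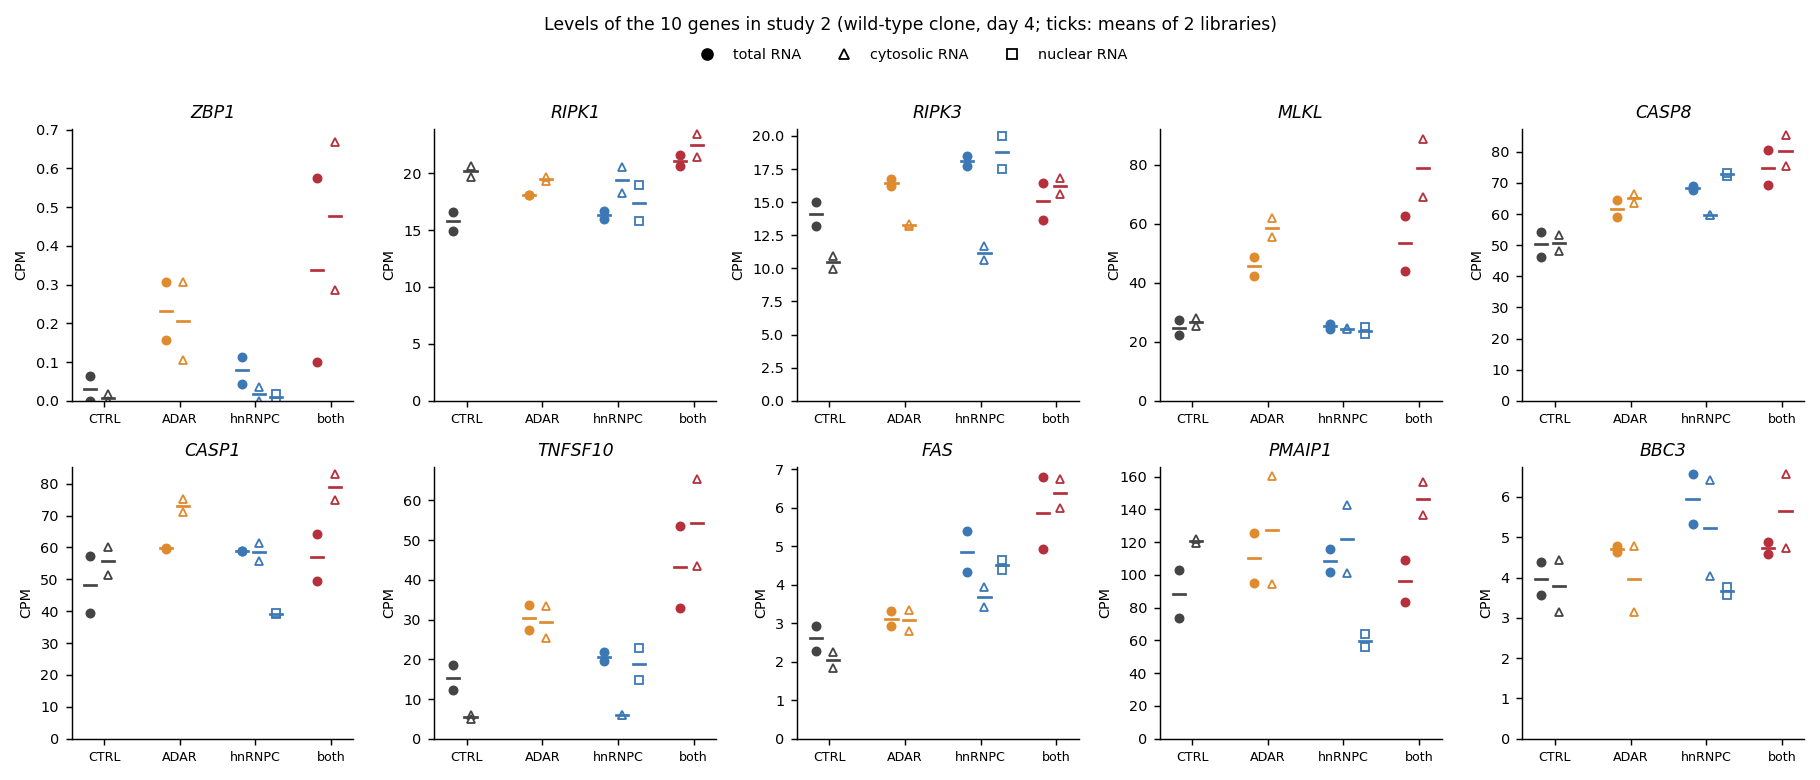
CPM of the 10 genes in study 2 with 1 symbol per library and ticks for the means of 2 libraries, by gRNA and by total (filled circles), cytosolic (triangles) and nuclear RNA (squares). Each vertical axis starts at 0. TNFSF10 and MLKL stand highest with ADAR gRNA and with both gRNAs, and in CTRL and hnRNPC-targeted cells TNFSF10 is lower in cytosolic than in total RNA.

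In cytosolic RNA, ADAR gRNA called 2 of the 9 genes (4.61% of all genes), TNFSF10 at 5.01 and 5.99 CPM in CTRL and 25.2 and 33.3 CPM in ADAR-targeted cells (2.41 ± 0.28) and MLKL at 1.14 ± 0.16. Both gRNAs called 3 (6.65% of all genes), TNFSF10 at 43.5 and 65.3 CPM (3.30 ± 0.28), FAS at 1.64 ± 0.21 and MLKL at 69.1 and 88.8 against 25.4 and 28.0 CPM (1.56 ± 0.16). RIPK3, CASP8 and CASP1 were at 0.63, 0.66 and 0.50 with an adjusted p of 0.015 or less. hnRNPC gRNA called no member, with 34 genes higher and 31 lower in all (2191 at an unadjusted p under 0.05, and 52 higher and 22 lower by DESeq2). FAS was at 0.84 ± 0.21 there (adjusted p = 0.042).

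Where the transcripts sit was read from the fractions. Over the 4 gRNA groups, cytosolic RNA had less TNFSF10 than total RNA (-0.75 ± 0.13, adjusted p = 7.5e-05) and less RIPK3 (-0.33 ± 0.06), and more PMAIP1 (0.36 ± 0.11), MLKL (0.25 ± 0.08), CASP1 (0.24 ± 0.08) and RIPK1 (0.20 ± 0.06), none past the size threshold. The median of all genes in this comparison was 0.17, and DESeq2 placed it 0.11 lower. The group levels of TNFSF10 differed, with 15.4 CPM in total and 5.50 CPM in cytosolic RNA of CTRL cells, but 43.2 and 54.4 CPM in ADAR+hnRNPC-targeted cells, and this difference between groups was not tested. In hnRNPC-targeted cells, the one group with a nuclear fraction, TNFSF10 was lower in cytosolic than in nuclear RNA (6.01 and 6.03 against 14.7 and 22.9 CPM, -1.65 ± 0.27), one of the 14.9% of genes called lower. PMAIP1 was higher (101 and 142 against 56.1 and 63.7 CPM, 1.02 ± 0.23), one of the 15.5% called higher, and its call was lost with DESeq2 (0.77), with DESeq2 size factors (0.96) and without hnRNPC cytosolic replicate 2 (0.75) or hnRNPC nuclear replicate 1 (0.91). RIPK3 was at -0.75 ± 0.13 and was called by DESeq2, which placed the median of all genes 0.25 lower in this comparison. The nuclear RNA MALAT1 was at 2145 CPM in the nuclear and 818 CPM in the cytosolic fraction, and the mitochondrial MT-ND1 at 53.4 and 2.15 CPM.

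Reads on introns, deposited for study 1, were used to see whether intron RNA moved with the genes. Such reads can come from unspliced RNA or from intron stretches kept in spliced transcripts, and the counts do not separate these sources. The study reports more intron RNA built into transcripts after hnRNPC targeting. At an average of 1 log2 CPM or more, 3 introns of the 10 genes could be tested, of CASP8 (chr2:202098836-202122758 and chr2:202141692-202149538) and of PMAIP1 (chr18:57567468-57569878). With both gRNAs on day 5, the CASP8 intron at chr2:202098836-202122758 (1.10 ± 0.12) and the PMAIP1 intron (1.57 ± 0.22) were called higher, against 5.49% of all introns. Their genes were at 1.13 and 1.90. For introns, replicates were left out by number, in all groups at once. Without replicate 3 the CASP8 intron was at 0.85 and not called. IFN-α raised the PMAIP1 intron from a range of 3.40 to 4.22 CPM to 6.49 to 10.5 CPM (1.19 ± 0.22, against 0.821% of all introns), a call that was lost without replicate 1 (1.10, adjusted p = 0.077) or replicate 2 (1.02, adjusted p = 0.079). The same CASP8 intron, at chr2:202098836-202122758, had 12.7 to 15.0 CPM in CTRL and 8.55 to 10.3 CPM in hnRNPC-targeted cells on day 5 (-0.55 ± 0.12, adjusted p = 0.00057), while the CASP8 gene was higher (0.55).

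With library sizes taken from the intron counts, 41 introns of the 10 genes passed the same minimum, which is a change of the filter as much as of the scale. Both tested FAS introns (chr10:90751148-90762785 and chr10:90771839-90773099) were then called higher with hnRNPC gRNA on each day (1.19 to 1.88), against 1.48%, 2.5% and 3.95% of all introns on days 3, 4 and 5. With both gRNAs on day 5 they were at 3.09 ± 0.32 and 3.18 ± 0.36, against 7.6% of all introns. All 9 tested introns of MLKL, all 8 of CASP1 and all 4 of TNFSF10 were called with both gRNAs on day 5, as were 2 of 3 introns of RIPK1, 1 of 4 of RIPK3 and 2 of 9 of CASP8. A CASP8 intron (chr2:202137666-202139611) was also called higher with hnRNPC gRNA on day 4 (1.11 ± 0.20) and day 5 (1.09 ± 0.20). That was the other direction than for the CASP8 intron at chr2:202098836-202122758. A long noncoding RNA overlaps the higher CASP8 intron on the same strand. Group means of the FAS introns reached at most 2.38 CPM, and the first of them overlaps the long noncoding RNA on the other strand.

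A-to-I editing, the reaction that ADAR catalyzes, was read in CASP8, where 12 sites of study 1 lie in the last exon at chr2:202151998-202152109. Edited reads were 2.38 to 4.98%, 1.72 to 2.93% and 1.54 to 5.54% of the reads at these sites in CTRL libraries of days 3, 4 and 5, and 2.65 to 4.91% in hnRNPC-targeted libraries. In ADAR-targeted cells they were 0.426 to 2.03%, and in ADAR+hnRNPC-targeted cells 0.499 to 2.33%, with the highest mean on day 5 (1.83% ± 0.487, SD, n = 3). IFN-α-treated cells had 8.06 to 11.8% (10.1% ± 1.88), above every other library of study 1. Reads per library at the sites numbered from 430 to 2354, and the shares are given as a description, without a test.

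In study 2, 13 of 18 CASP8 sites lie in the same stretch and 5 in the intron at chr2:202098836-202122758. The 5 intron sites were edited in 0.105% of their reads. Over all 18 sites, CTRL libraries had 2.68 and 6.77% edited reads in total RNA and 3.46 and 3.74% in cytosolic RNA. With ADAR gRNA the values were 0.326 and 0.588% in total and 0.141 and 0.403% in cytosolic RNA, and with both gRNAs 0.553 and 0.810% and 0.172 and 0.448%. The deposited sites of RIPK1 (3, study 1) and TNFSF10 (5, study 2) were edited in 0.104 and 0.25% of their reads over all libraries. None of the 10 genes overlapped an editing-cluster-rich region, the windows that the authors made from clusters of editing sites.

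**Figure D5:**
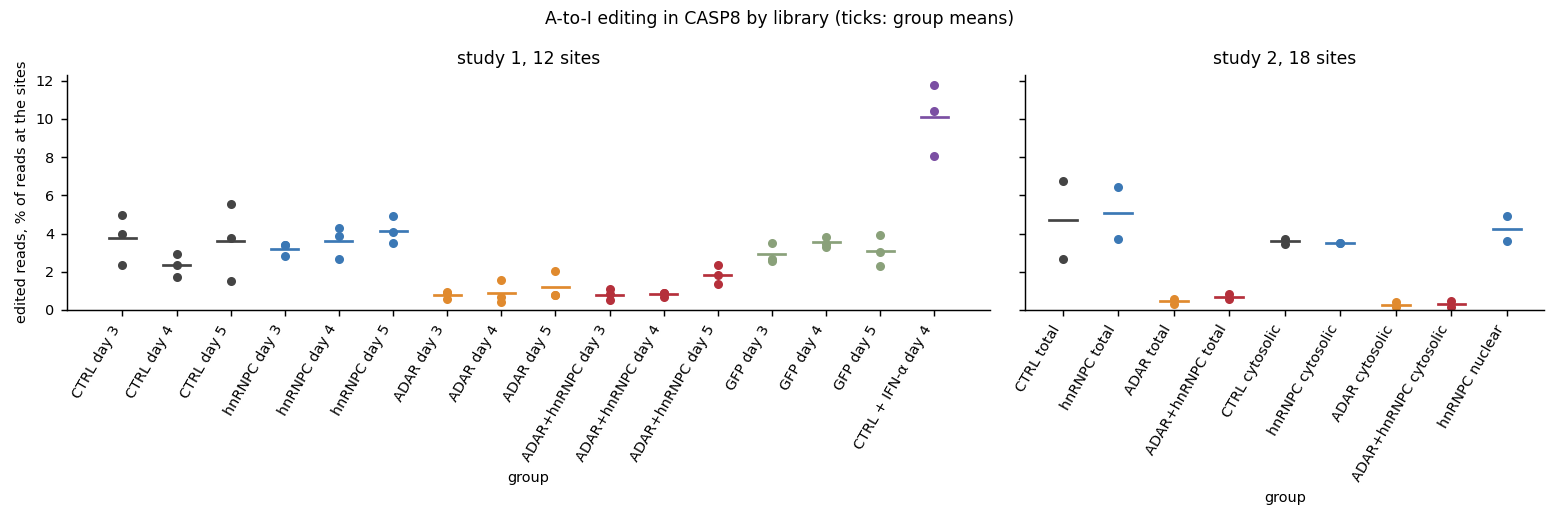
Edited reads in percent of all reads at the deposited CASP8 editing sites, with 1 point per library and ticks for the group means, in study 1 (left, 12 sites) and study 2 (right, 18 sites). Libraries with ADAR gRNA lie at 2.33% or lower, and the 3 IFN-α libraries lie between 8.06 and 11.8%.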

How the data were processed

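RNA-seq libraries were prepared with a stranded total RNA kit after rRNA depletion. Per the labels and the methods, the authors aligned reads with STAR 2.5.4a to GRCh37 and deposited raw counts per gene (featureCounts, GENCODE v19), per APPRIS intron, and of edited and all reads at editing sites, the strand setting not being given in the sources used here. Author comparisons were not used, and 0 value columns lacked a sample. Genes with an average of at least 0.5 log2 CPM over the libraries fitted (introns 1) were tested with edgeR 4.0.16 (R 4.3.3), TMM scaling, the quasi-likelihood test and Benjamini-Hochberg adjustment. All 48 or all 18 libraries shared one fit, and interactions of study 1 used the 12 libraries of a day. Intron fits used library sizes of the gene counts. The scripts were tested on simulated data. Replicates were not duplicates (smallest chi-square per gene 12.1). The 10 genes and all lists were chosen with earlier results of these data known. All members and at most 3 called genes per list are named, those with the largest changes, and for likeness the 3 genes with the highest r. DESeq2 1.42.0, limma-voom (limma 3.58.1), other scaling and filters, a replicate block, GFP-targeted controls and leaving out libraries were alternatives. ZBP1 ratios used exact binomial intervals of pooled counts. Some genes of the lists and of the likeness ranking are not reported here.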

Additional observations from a re-analysis of the deposited data

Results flagged for a closer look

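Effects that differed between days or between genetic backgrounds by a test of the difference itself are listed here. The response to both gRNAs was larger on day 5 than on day 3 for TNFSF10 (by 3.48 on the log2 scale), MLKL (2.71), PMAIP1 (1.52), RIPK1 (1.23), FAS (1.07) and BBC3 (1.06). On day 4 the effect of hnRNPC gRNA differed with and without ADAR gRNA for BBC3 (1.06) and MLKL (0.55). On day 5 it differed for TNFSF10 (3.14), MLKL (2.53), PMAIP1 (1.54), FAS (1.18), RIPK1 (1.14), CASP1 (0.90) and CASP8 (0.60). Groups of 2 or 3 libraries are too small for a check of single libraries that stand apart.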

How the results depend on the processing

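Of the counts of called members per comparison, 144 stayed within 1.5 times the main count under another setting and 14 did not. With 1 library left out (for introns, all libraries of 1 replicate number), 188 did and 11 did not. No direction reversed in any setting run. Without a filter on low counts, ZBP1 was added and 2 members were called with IFN-α, 1 with ADAR gRNA on day 5 and 1 with ADAR gRNA in total RNA. With DESeq2, with limma-voom and with the replicate block, 2 members were called with hnRNPC gRNA on day 5. The count in ADAR total RNA became 1 with limma-voom and 1 with the replicate block, and the interaction in total RNA became 1 with DESeq2, limma-voom and the replicate block each. With DESeq2 size factors, 1 member was called between cytosolic and nuclear RNA. Member introns had 61 calls with library sizes from intron counts (41 introns tested rather than 3) and 97 without a filter (80 tested).

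Leaving out 1 library gave ranges of 1 to 2 for hnRNPC day 5, 1 to 3 for ADAR+hnRNPC day 4, 5 to 6 for day 5 minus day 3, 5 to 6 for day 5 minus IFN-α, 7 to 8 for the interaction of day 5, 0 to 2 for ADAR total, 0 to 1 for hnRNPC total, 1 to 3 for ADAR+hnRNPC total, 0 to 2 for the interaction in total RNA, 1 to 2 for cytosolic against nuclear RNA and 2 to 3 for introns. The intron range came from leaving out all libraries of 1 replicate number at once, rather than 1 library. Where 1 library remained in a group, it was assumed to vary like the others. The causes were not tested. Same-numbered libraries of different groups had a median correlation of deviations of 0.17 and 0.15 in the studies, over 0.1 in 61.1% of pairs. For different numbers the medians were -0.08 and -0.15, and 18.5% and 13.9% of pairs were over 0.1. Of the libraries, 40 of 48 and 16 of 18 were closest to their own number. Same-numbered libraries thus shared variation. The labels do not say what a number marks, and the main fits did not use it, which leaves that shared part in their error. The replicate block moved no other count of called members by over 1.5 times. Over all genes, it moved the interaction of day 4 from 410 positive and 122 negative calls to 1446 and 1739 (618 and 846 in the fit of all 48 libraries), that of day 3 from 0 to 8 positive calls, and ADAR day 4 from 9 to 17 higher calls.

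Over all genes, DESeq2 changed the split of higher and lower calls from 973 and 2169 to 1727 and 1296 in the interaction of total RNA (1188 and 1700 with its size factors), from 2119 and 2034 to 1011 and 2544 between cytosolic and nuclear RNA, from 410 and 122 to 941 and 797 in the interaction of day 4, from 73 and 64 to 91 and 50 for hnRNPC day 3, from 278 and 123 to 223 and 187 for ADAR total, and from 34 and 31 to 52 and 22 for hnRNPC cytosolic. ZBP1 ratios without single libraries, chosen after seeing the data, are given with the ratios. Depth limited ZBP1, with at most 2 counts in any CTRL library of study 1, and most introns. Editing-cluster regions gave no value, since no member held one.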
